A study of Drosophila melanogaster with 24 samples.

Results

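The 10 genes described here are *ple*, *Ddc*, *Tdc2*, *Tbh*, *Hdc*, *Vmat*, *DAT*, *SerT*, *ine* and *e*. Except for *ine*, they make, package, take up again or inactivate the monoamine transmitters of the fly brain. *ine* is included as a member of the neurotransmitter transporter family, and what it carries was not examined. All 10 were chosen by name for these roles from the 16995 genes of the count table and were found there. RNA was measured in single brains of adult mated *Drosophila melanogaster*, 10 to 14 days old, from a *tau*-KO line that lacks part of the gene for the microtubule-associated protein Tau. Females and males were left uninjured (control) or received traumatic brain injury (TBI) from 1 strike of a spring-driven impact device to the whole body, and brains were taken 1, 2 or 4 h later. This gave 8 groups of 3 libraries, each library from another brain, so that the spread within a group holds that between flies together with that of dissection and sequencing. The controls carry the *tau* deletion too, so every comparison is between *tau*-KO flies, and flies with an intact *tau* gene were not analysed here. The line is a single mutant stock, and the strike reached the whole body and not the head alone.

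Monoamines are small transmitters made from amino acids by a few neurons that reach wide parts of the fly brain. Dopamine, serotonin, octopamine and tyramine act there on arousal, sleep, feeding and learning, and histamine is the transmitter of photoreceptors. Each amine is made from its amino acid in a few enzyme steps, loaded into vesicles by a vesicular transporter, and removed after release by reuptake into neurons or by conjugation, for example to beta-alanine in glia.

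The 24 libraries held 117416 (male control 1) to 1880528 (male 1 h 2) reads in genes, median 772916.5, so that 3 counts were worth 1.64 to 21.1 CPM, the unit of level used here (counts of a gene scaled to a common library size). *Tau* itself was read in all 24 libraries, at 53.2 to 191 CPM, which does not check the knockout because these reads come from 3′ ends. The brain label was checked against defining markers: the neuronal genes *elav* and *brp* and the photoreceptor opsin *ninaE* were read in all 24 libraries, and the glial gene *repo* was at 0 in 1. The muscle myosin *Mhc*, which is no brain marker, was read in all 24 libraries too. Its median was 408 CPM, beside 359 CPM for *brp*, and the share of RNA from tissue outside the brain was not tested. A pair of male libraries, control 2 and 1 h 2, differed from the rest in cell markers. Their 6 muscle markers summed to 271.3 and 290.8 CPM against 2408 to 3677 CPM elsewhere, and their 12 neuron markers to 1561 and 1584 CPM, the lowest of all. Female control 2 held 7571 CPM of the 9 antenna markers against 236.2 to 1304 CPM in the other 23 libraries. It also had the highest sum of the 5 fat body markers, 22640 CPM. Male control 2 had the lowest sums of the fat body markers (1351 CPM) and of the 6 gut markers (2.422 CPM). Male 1 h 2 had the next lowest of both, 2499 and 26.19 CPM. Calls that changed without one of these libraries are given without it as well.

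The clearest difference among the 10 genes was a lower level of *ine*, a transporter of the neurotransmitter transporter family, in males 2 and 4 h post-TBI. By edgeR its p adjusted over all genes was 0.639 and 0.962, and the call at 2 h was lost without male control 2. *SerT* was counted in 4 of 6 control libraries and in none of the 6 libraries at 1 h, and *Tbh* in none of the 3 male libraries at 1 h, both from few reads. *Vmat* was lower in every male library at 1 and 2 h than in every male control, by less than the fold required for a call. *e* and *DAT* differed more between libraries of a group than most genes of like level, and their levels moved with sequencing depth. *ple*, *Ddc*, *Tdc2* and *Hdc* were not called in any comparison of the reported fit, and *Tdc2* in males at 1 h was called in 6 of 33 refits. *e* was not called in the reported fit either, and in males at 2 h was called in 7 of 33 refits.

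**Figure D1:**
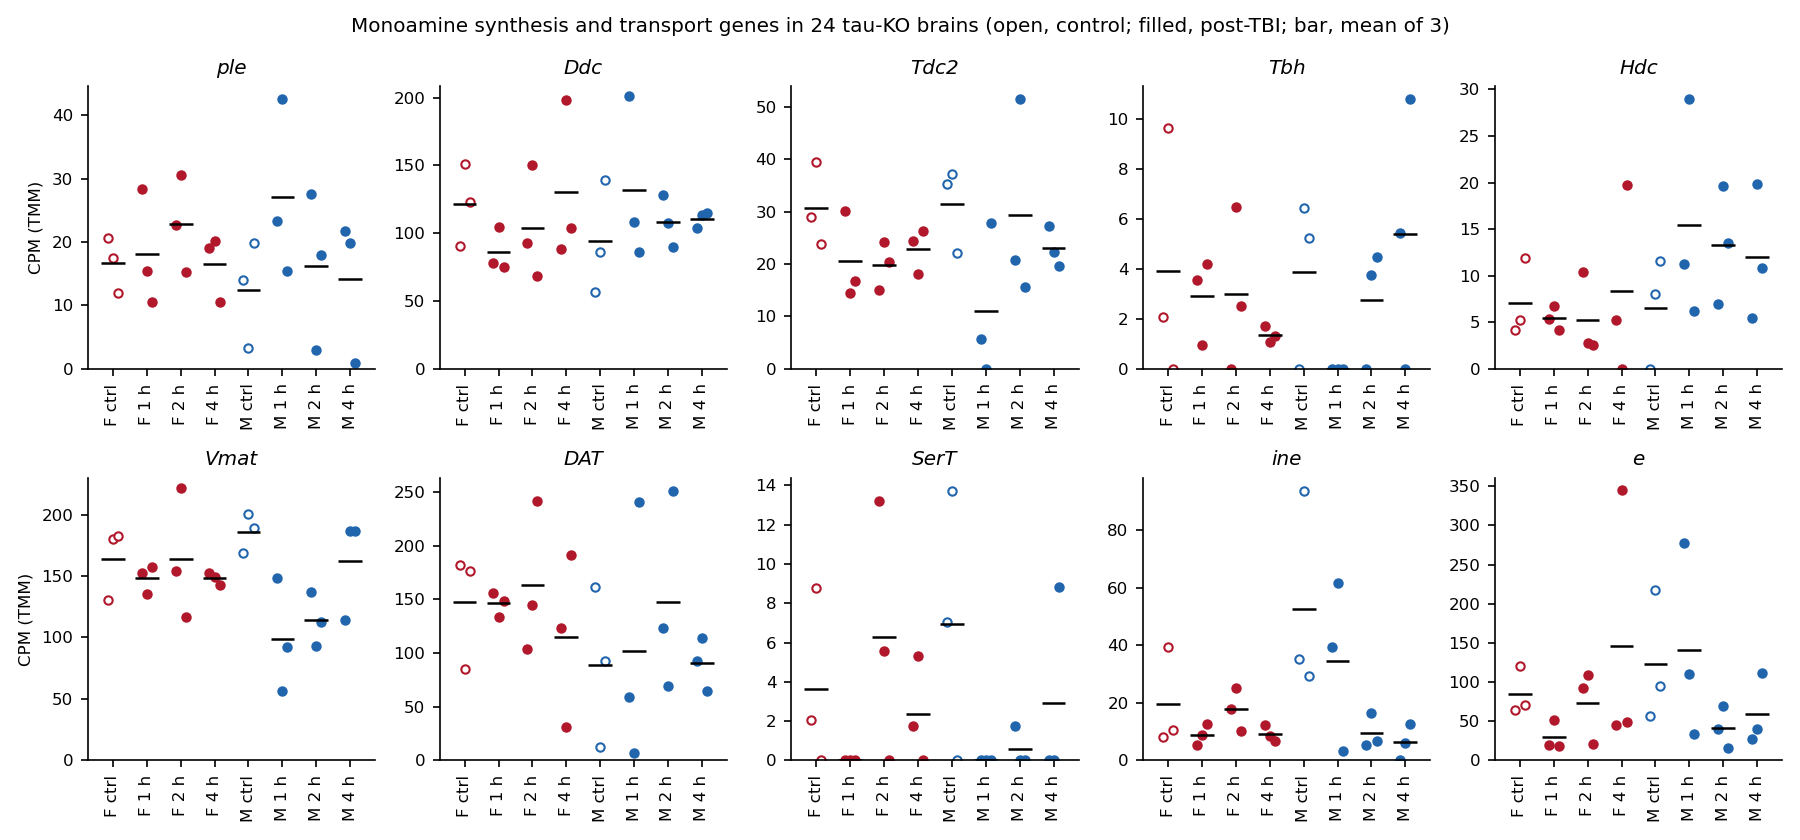
Level of each of the 10 genes (CPM with TMM factors, linear axes that start at 0) in the 24 libraries, by sex (F, female; M, male) and time. Each point is 1 brain and each bar the mean of 3. *ine* in males at 2 and 4 h lies at 0 to 16.6 CPM, below the male controls at 29.4 to 93.7 CPM.

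Levels are given in CPM and differences as log2 fold changes (log2 FC) with their standard error (SE) from edgeR's quasi-likelihood fit of all 8 groups. A gene was called when its unadjusted p was under 0.05 and its log2 FC was above 1 or below −1; the p printed beside a gene is the one adjusted over all genes. All 10 genes passed the minimum of 5 counts in at least 3 libraries that 7865 genes passed. *SerT* and *Tbh* did so with 6 libraries each, of which 2 and 3 were controls. After Benjamini-Hochberg adjustment over the 7865 genes, 0 of the 10 genes had an FDR under 0.05 in any of the 12 comparisons by edgeR, DESeq2 or limma voom, and the counts at an unadjusted p under 0.05 by edgeR were 3, 1 and 1 in males at 1, 2 and 4 h, 0 in females, and 2 when all injured groups were set against both controls.

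In males, 2 of the 10 genes were called at 1 h, where 4.64% of all tested genes were, 1 at 2 h (7.26% of all) and 1 at 4 h (3.92% of all), each of them lower. A single gene is 10% of the list, so that the 1 gene at 2 and at 4 h lies near the background, and the 2 at 1 h were both genes of few reads. In females, 0 of the 10 were called at 1, 2 and 4 h, beside 1.44, 2.16 and 1.42% of all genes; DESeq2 also called 0, and limma voom called *e* at 1 h. Set against both controls, the 6 injured groups had 2 called genes, again lower, beside 5.2% of all. The difference between the sexes in the injury effect was called for 0 of the 10 at 1, 2 and 4 h by edgeR (3.04, 3.65 and 3.05% of all genes), while DESeq2 called 0, 1 and 0 and limma voom 1, 1 and 0. The median log2 FC of the 10 genes was −0.21, −0.37 and −0.03 in males at 1, 2 and 4 h, with medians of all genes of 0.02, −0.02 and −0.05. In females it was −0.51, −0.16 and −0.255, with medians of all genes of −0.06, −0.02 and 0.02. At 1 h, 9 of the 10 values were negative in females and 5 of 10 in males. The 10 values of a sex rest on the same libraries, in females with female control 2 among them. The share of negative values over all genes was not counted. The 3 comparisons within a sex share their 3 control libraries, and the joint comparison uses the same libraries again.

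**Figure D2:**
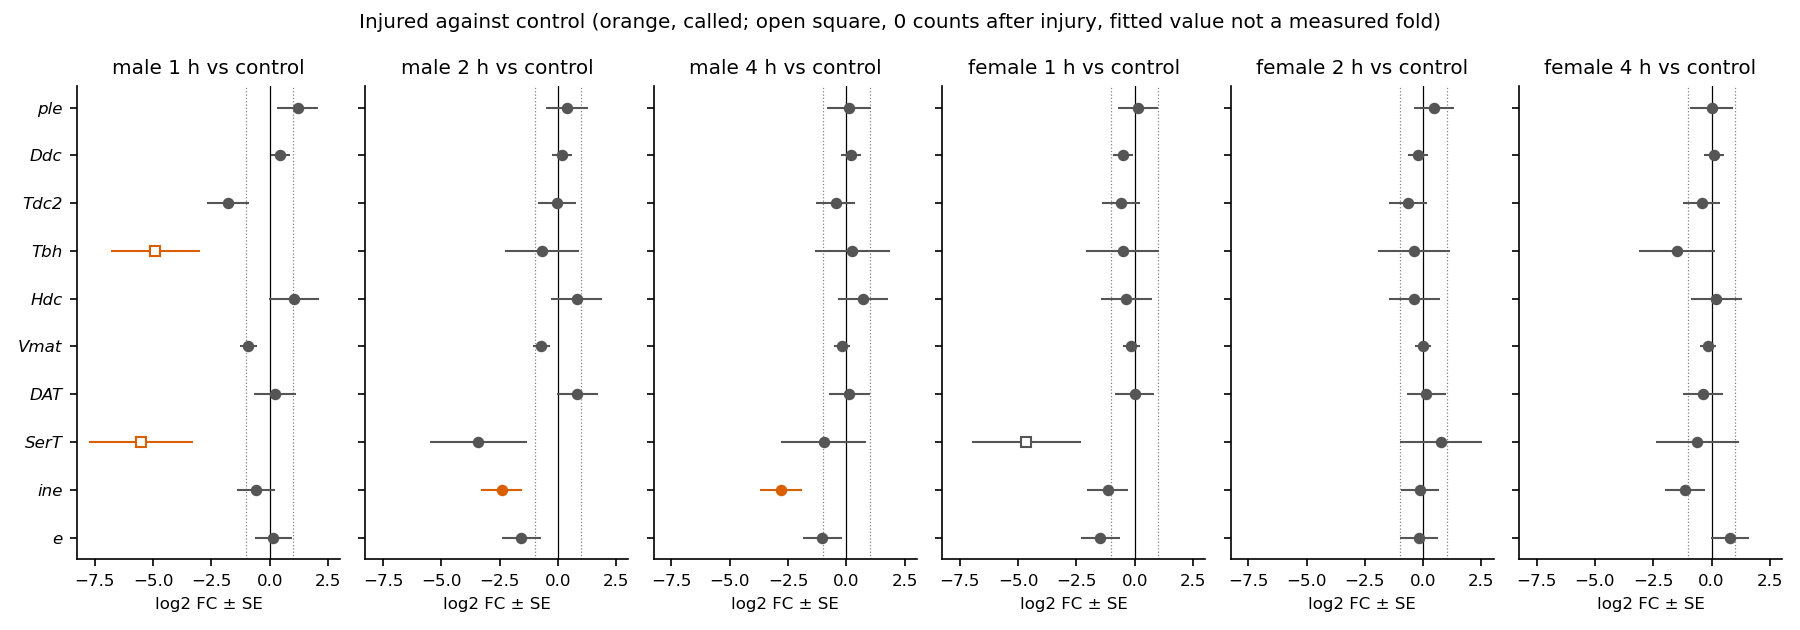
Log2 FC ± SE of each gene in the 6 comparisons of injury with the control of the same sex. Dotted lines mark log2 FC of −1 and 1, orange marks a call, and open squares mark groups with 0 counts, whose fitted value is no measured fold. *ine* is left of 0 in all 6 panels and called in males at 2 and 4 h.

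*ple* and *Ddc*, enzymes of dopamine synthesis, were counted in all 24 libraries. *ple* encodes tyrosine hydroxylase, the rate-limiting enzyme of dopamine synthesis. Its group means were 12.4 to 27.1 CPM, and the 24 libraries ran from 0.982 to 42.6 CPM, with the highest in male 1 h 2 and the lowest in male 4 h 3. In male controls the 3 libraries held 14.1, 3.23 and 19.9 CPM of *ple* and in males at 1 h 23.4, 42.6 and 15.4 CPM. The groups overlapped, and the log2 FC of 1.2 (SE 0.891, adjusted p = 1) was not called. Its other 5 values against control were at most 0.47. *Ddc* encodes dopa decarboxylase, which makes both dopamine and serotonin. Its level was at 56.3 to 201 CPM with group means of 86 to 132 CPM. Its log2 FC after injury was between −0.50 and 0.46 (SE 0.416 to 0.425).

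*Tdc2*, the neuronal tyrosine decarboxylase that makes tyramine, had a negative log2 FC in all 6 comparisons, from −1.78 to −0.05. Male controls held 35.2, 37.1 and 22 CPM of *Tdc2*. At 1 h the 3 male libraries were at 5.62, 0 and 27.7 CPM, the last of them within the controls. The difference (log2 FC −1.78, SE 0.899, adjusted p = 1) was not called. It was called by DESeq2 (−1.95), limma voom (−2.15), with RLE factors (−1.88), with depth as a term (−1.95), without the 3 shallowest libraries (−3.47) and without male 1 h 3 (−3.55), at adjusted p of 0.256 to 1. In females the group means of *Tdc2* were 30.7 ± 7.99 CPM in controls and 20.5 ± 8.48, 19.9 ± 4.54 and 22.9 ± 4.3 CPM (SD, n = 3) at 1, 2 and 4 h, and the ranges of each injured group and the controls overlapped. *Hdc*, the histidine decarboxylase that makes histamine, ran from 0 to 28.9 CPM with group means of 5.24 to 15.4 CPM. Its highest value was in male 1 h 2, the library with the highest sum of the 15 photoreceptor markers (18140 CPM against 2829 to 10250 CPM in the others). The part of photoreceptor RNA in the level of *Hdc* was not tested.

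*Tbh*, tyramine beta-hydroxylase, which makes octopamine from tyramine, was near the limit of detection, with 60 counts in all and 0 in 8 of 24 libraries. The male controls had 0, 8 and 5 counts and the 3 male libraries at 1 h had 0 each. With the floor of 3 counts in place of the group's 0 and the control total taken as exact, this was 5.99-fold lower. The fit called it (log2 FC −4.91, SE 1.91, adjusted p = 0.995). Because male control 1, the shallowest library, was at 0 as well, the groups met at 0. The call was lost in 3 of 32 refits, among them without male 1 h 2 (log2 FC −4.85) and by limma voom (−2.82). The adjusted p was 0.519 to 1 over the 32. In females *Tbh* had 1, 11 and 0 counts in controls, 5 over the group at 1 h, 8 at 2 h and 3 at 4 h. The difference between males and females at 1 h was not called (log2 FC −4.39, SE 2.2, adjusted p = 1). It was called in 4 of 32 refits, 1 of them without female control 2 (−6.34).

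*Vmat*, the vesicular transporter that loads dopamine, serotonin, octopamine and tyramine into vesicles, ran from 56.2 to 222 CPM. Male controls held 169, 200.2 and 189 CPM. At 1 h the males were at 148, 56.2 and 92.4 CPM and at 2 h at 137, 92.9 and 112 CPM, so that all 6 libraries lay below all 3 controls. At 4 h they were at 114.5, 186.8 and 186.5 CPM and overlapped the controls. The log2 FC was −0.92 at 1 h (SE 0.361, adjusted p = 0.995) and −0.72 at 2 h (SE 0.36, adjusted p = 0.639), a fold of 0.529 and 0.609 that did not reach the fold of a call. Without male 1 h 1 the decrease at 1 h passed both thresholds (log2 FC −1.35), without male 1 h 2 it was −0.62 and with male control 2 left out too −0.57, and over 33 refits it was −1.35 to −0.57 with an adjusted p of 0.552 to 1. Groups without overlap were 1 of 10 at 1 h and 2 of 10 at 2 h in males, where 3.85 and 9.74% of all genes had none.

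In females *Vmat* was not called, with 164 ± 29.5 CPM in controls and 148 ± 11.5, 164 ± 53.4 and 148 ± 5.34 CPM (SD, n = 3) at 1, 2 and 4 h. The difference between the sexes in the change at 1 h was −0.77 (SE 0.505, adjusted p = 1), so a different response of males and females was not shown. Ordered by mean, *Vmat* was highest in male controls, followed by female controls, females at 2 h, males at 4 h, females at 1 h, females at 4 h, males at 2 h and males at 1 h. Neighbours in this order overlapped except females at 4 h, at 142 to 153 CPM, and males at 2 h, at 92.9 to 137 CPM. A gene on the opposite strand, *CG13330*, overlaps *Vmat* in a later annotation, and whether the count used strand is not given in the sources used here.

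*SerT*, the serotonin transporter that takes serotonin back into neurons, was the sparsest, with 65 counts in all and 0 in 14 of 24 libraries. By time it had 29 counts in 4 of 6 controls, 0 counts in the 6 libraries at 1 h, 21 counts in 3 of 6 at 2 h and 15 counts in 3 of 6 at 4 h. Pooled over libraries this was 6.15 CPM in controls (3.45 CPM without male control 2) and at most 0.566 CPM, the worth of 3 counts, at 1 h. Males had 1, 17 and 0 counts as controls against 0, 0 and 0 at 1 h, 8.29-fold lower at the floor of 3 counts over the group (fitted log2 FC −5.51, SE 2.24, adjusted p = 0.995). Females had 1, 10 and 0 counts as controls against 0, 0 and 0 at 1 h, 3.2-fold lower at that floor (fitted log2 FC −4.65, SE 2.33, adjusted p = 1), which was not called. Both folds at the floor take the control totals as exact. Each of these control totals came mostly from 1 library, male control 2 and female control 2, which are also 2 of the 3 libraries that stood apart.

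Without male control 2 the male difference in *SerT* at 1 h was −3.81, and the call was also lost without male 1 h 1 (−5.49) without male 1 h 2 (−5.43), with both it and male control 2 left out (−3.60), by DESeq2 (−5.11) and by limma voom (−1.99). Over 32 refits its adjusted p was 0.533 to 1. With all injured groups against both controls *SerT* was lower by a log2 FC of −2.40 (SE 0.92, adjusted p = 0.63). That call was lost without female control 2 (−1.46), without male control 2 (−1.56), without male control 2 and male 1 h 2 together (−1.45), with a replicate block (−1.99), by DESeq2 (−2.30) and by limma voom (−0.60). Its adjusted p was 0.407 to 1 over 32 refits. At the later times *SerT* was counted again in females, with 14, 6 and 0 counts at 2 h and 1, 5 and 0 at 4 h. In males it had 1, 0 and 0 counts at 2 h, a ratio to control of 0.0552 with a 95% interval of 0.00133 to 0.35 for counting error only, and 0, 0 and 9 counts at 4 h.

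*ine* (inebriated) belongs to the sodium- and chloride-dependent neurotransmitter transporters, and its loss is known to make fly neurons overexcitable. Male controls held 35.2, 93.7 and 29.4 CPM. Males at 2 h held 5.19, 16.6 and 6.73 CPM and males at 4 h 0, 6.19 and 12.8 CPM, so all 6 libraries lay below all 3 controls. At 1 h the values were 39.3, 61.7 and 3.08 CPM, with 2 libraries within the controls and 1 below. The log2 FC was −0.58 at 1 h (SE 0.808, adjusted p = 1), −2.42 at 2 h (SE 0.872, adjusted p = 0.639) and −2.81 at 4 h (SE 0.906, adjusted p = 0.962). By p the change at 4 h ranked 14 of the 7865 genes, of which 0 had an FDR under 0.05 in that comparison. Groups without overlap were 1 of 10 at 4 h, where 6.79% of all genes had none.

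The decrease of *ine* at 4 h was called in each of the 33 refits, with a log2 FC between −3.61 and −2.02 and an adjusted p of 0.63 to 1. At 2 h the call was lost without male control 2, the library with the most *ine* (log2 FC −1.66), and without male control 2 and male 1 h 2 together (−1.65). The adjusted p at 2 h was 0.244 to 1 over 33 refits. Sequencing depth moved with *ine*: the 12 deeper libraries held 6.19 to 93.7 CPM (median 21.5) and the 12 shallower 0 to 35.2 CPM (median 7.5). Within the deeper libraries the male controls held 93.7 and 29.4 CPM, males at 2 h 16.6 CPM and males at 4 h 6.19 and 12.8 CPM. Within the shallower the male control held 35.2 CPM, males at 2 h 5.19 and 6.73 CPM and the male at 4 h 0 CPM. With the deeper and shallower libraries as a term in the fit, the log2 FC was −2.10 at 2 h (SE 0.786) and −2.96 at 4 h (SE 0.811).

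**Figure D3:**
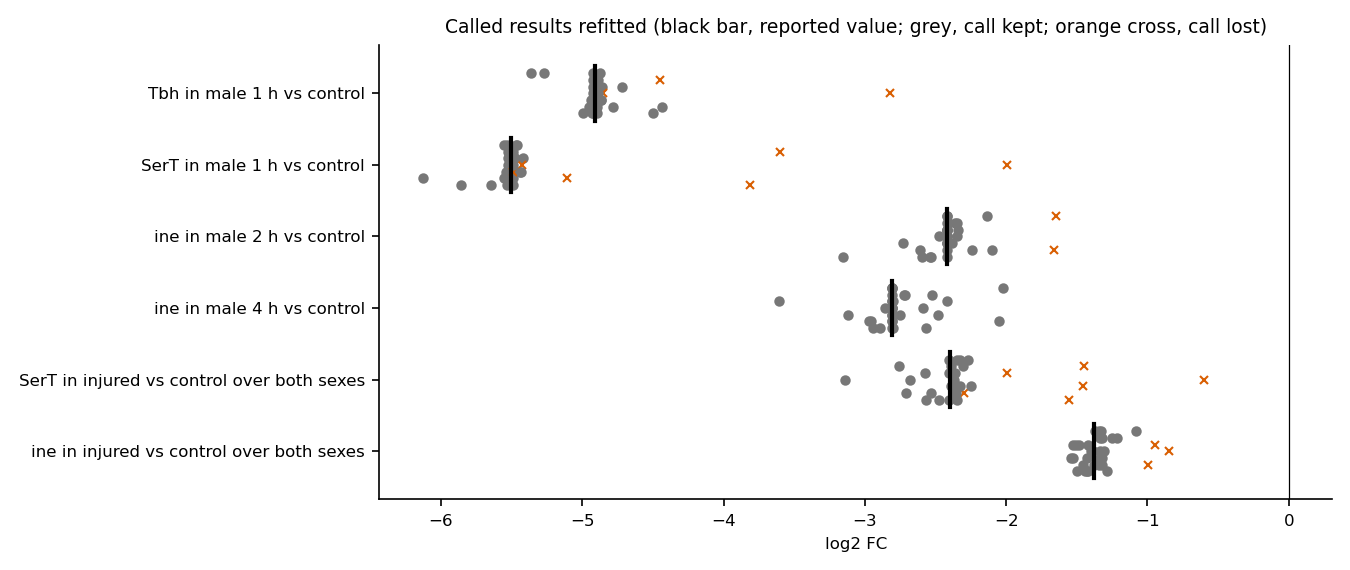
Log2 FC of the called results under each refit (libraries left out, other tools, filters and normalizations), on a linear axis. The black bar is the reported value, grey points kept the call and orange crosses lost it. *ine* in males at 4 h kept its call in all 33.

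Glial markers were read beside *ine* in males at 2 h, where 7 of 10 had a negative log2 FC and 3 a positive one. Of the 10 glial genes 3 were called lower, *Gat*, *wrapper* and *Mdr65*, at log2 FC −1.18, −2.58 and −2.28 (adjusted p = 0.639 for each), where 5.42% of all genes were called lower. The summed list was 1857 to 2915 CPM in male controls and 1592 to 2181 CPM at 2 h. These ranges overlapped, and the 2915 CPM came from male control 2. At 4 h 6 of the 10 values were negative and 4 positive. Of the 10, 1 was called lower, *Mdr65* (adjusted p = 0.962), where 2.56% of all genes were, and the sum was 2041 to 2197 CPM. The 12 neuron markers summed to 1561 to 3978 CPM in male controls, 3423 to 4228 CPM at 2 h and 3479 to 3926 CPM at 4 h, with 0 of 12 called by edgeR at either time. The muscle sum was 271.3 to 3377 CPM in male controls and 2917 to 3677 CPM at 2 and 4 h. The part of these cell types in the level of *ine* was not tested, and in whole brains fewer cells of a type and less RNA per cell cannot be told apart.

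In females *ine* was not called at any time. Female controls held 8.27, 39.5 and 10.6 CPM, of which the 39.5 came from female control 2. The log2 FC was −1.17, −0.14 and −1.14 at 1, 2 and 4 h (SE 0.871, 0.827 and 0.862, adjusted p = 1 at each). Male minus female, the change was −2.28 at 2 h (SE 1.19, adjusted p = 1) and −1.67 at 4 h (SE 1.23, adjusted p = 1), so the decrease was not shown to differ between the sexes. The difference at 2 h was called at an unadjusted p in 8 of 33 refits. Among them were DESeq2 (−2.47), limma voom (−2.80) and the fit without female control 2 (−3.34). Without female control 2 the difference at 4 h was called as well (−2.73). With all injured groups against both controls *ine* was lower by a log2 FC of −1.38 (SE 0.456, adjusted p = 0.595 and 0.294 to 1 over 33 refits). That call was lost without female control 2 (−0.85) and without male control 2 (−0.995), and limma voom gave −0.95, under the fold of a call. In this joint comparison 7 of 8 tested antenna markers were called lower, where 4.53% of all genes were. Female control 2 held 7571 CPM of them, and their part was not tested.

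The pooled level of *ine* over both sexes was 43.7 CPM in controls, 32.8 CPM at 1 h, 16 CPM at 2 h and 8.87 CPM at 4 h. Without male control 2 and male 1 h 2 it was 25.9 CPM in controls and 17.6 CPM at 1 h. By group mean the order was 52.7 ± 35.5 CPM in male controls, 34.7 ± 29.6 in males at 1 h, 19.4 ± 17.4 in female controls, 17.7 ± 7.46 in females at 2 h, 9.51 ± 6.2 in males at 2 h, 9.08 ± 2.83 in females at 4 h, 8.87 ± 3.63 in females at 1 h and 6.32 ± 6.38 CPM in males at 4 h (SD, n = 3). The ranges of all neighbours in this order overlapped. *FIG4* overlaps *ine* on the opposite strand in the later annotation.

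*DAT*, the transporter that takes dopamine back into neurons, was not called in any comparison, with log2 FC after injury between −0.36 and 0.83. Its level differed 35.4-fold among the 24 libraries, from 7.09 CPM in male 1 h 2 and 12.1 CPM in male control 2 to 251 CPM in male 2 h 3. Without those 2 low libraries it differed 8.14-fold, from 30.9 CPM upward. The spread within groups (biological coefficient of variation) was 0.701 for *DAT*, against a median of 0.412 over the 500 genes nearest in level. *e* (ebony) encodes the enzyme that joins beta-alanine to dopamine and histamine in glia. It had a coefficient of 0.678 against 0.435, and differed 22-fold, from 15.7 CPM in male 2 h 3 to 345 CPM in female 4 h 2. Among the other 8 genes *Vmat* had 0.334 against 0.406, *Ddc* 0.377 against 0.422, *ine* 0.642 against 0.651, and *SerT* 1.49 against 1.33. Without male control 2 and male 1 h 2 the coefficient was 0.486 against 0.347 for *DAT* and 0.699 against 0.369 for *e*. With depth as a term over all 24 libraries it was 0.574 against 0.33 for *DAT* and 0.4 against 0.358 for *e*.

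Female controls held 64.1, 120 and 70.1 CPM of *e* and females at 1 h 19.5, 51.2 and 18.9 CPM, all below the controls. The log2 FC of −1.47 (SE 0.843, adjusted p = 1) was not called. It was called with limma voom (−1.45), and among females at 1 h 1 of the 10 genes had groups without overlap, where 10.4% of all genes did, with 0 of 10 at 2 h (5.33% of all) and 0 of 10 at 4 h (6.1% of all). With sequencing depth as a term the log2 FC was −1.67 (SE 0.497, adjusted p = 1) and passed. At 4 h the females were at 45.1, 345 and 48.7 CPM, so that their mean of 146 ± 172 CPM (SD, n = 3) rests on female 4 h 2. Male controls held 56.3, 218 and 95.5 CPM of *e*, males at 2 h 39.8, 69.5 and 15.7 CPM, and males at 4 h 27.3, 39.6 and 112 CPM, overlapping at both times. At 2 h the male log2 FC was −1.57 (SE 0.834, adjusted p = 0.642), which was not called. In 7 of 33 refits it was called, among them DESeq2 (−1.74) and limma voom (−1.71).

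The levels of *e* and *DAT* ran against each other across libraries and moved with sequencing depth. The ratio of their CPM, which is a difference between libraries and not a comparison of the 2 genes' levels, was 18 in male control 2, 15.6 in male 1 h 2, 11.2 in female 4 h 2 and 4.7 in male 1 h 1, and 0.0625 to 1.73 in the other 20 libraries. The 12 deeper libraries held 39.6 to 345 CPM of *e* (median 110) and 7.09 to 145 CPM of *DAT* (median 77.3). The 12 shallower held 15.7 to 70.1 CPM of *e* (median 36.8) and 92.7 to 251 CPM of *DAT* (median 169). All 9 libraries with the most *e* and 8 of the 9 with the least *DAT* were among the deeper, and 7 libraries were in both sets. The 12 neuron markers moved the same way as *DAT*, at 1560 to 3640 CPM in the deeper and 3490 to 4470 CPM in the shallower libraries. Over the 24 libraries Spearman's rho was −0.73 between *DAT* and *e*, −0.53 between *DAT* and *ine*, 0.69 between *ine* and *e* and 0.66 between *Ddc* and *e*. Without male control 2 and male 1 h 2 these were −0.67, −0.39, 0.65 and 0.76. These are correlations across libraries that differ in depth and are scaled to a common total, and what lies behind them was not tested.

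**Figure D4:**
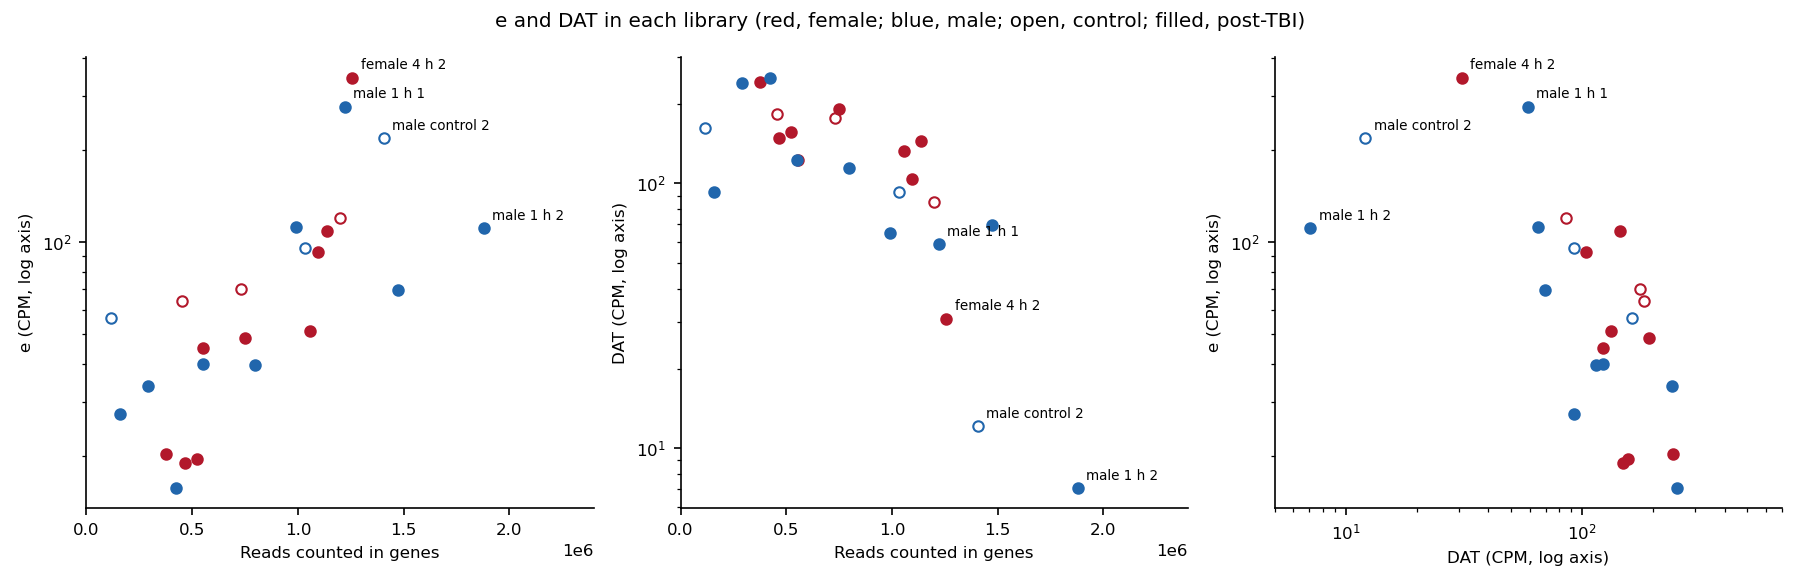
*e* and *DAT* (CPM, log axes) against reads counted in genes (linear axis), and against each other, for the 24 libraries. Red is female, blue male, open control and filled post-TBI. *e* is highest and *DAT* lowest among the libraries with the most reads.

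Every group held both deeper and shallower libraries, 1 deeper and 2 shallower or 2 and 1. With depth as a term the sign of *DAT* after injury stayed mixed, between −0.53 and 0.60, and none was called. The genes most like these members over the 24 libraries, among 3637 genes with a mean of at least 20 counts, were *CG11089*, *Pfdn2* and *mbl* for *DAT* (rho 0.91, 0.90 and 0.90) and *Picot*, *Tango7* and *HDAC6* for *e* (0.91, 0.90 and 0.90). For *ine* they were *CG5390*, *CG42361* and *Vha55* (0.81, 0.79 and 0.78), for *Ddc* *dally*, *ND-B17* and *CG4615* (0.85, 0.83 and 0.80), and for *Vmat* *l(2)SH0834*, *T48* and *CG3209* (0.80, 0.70 and 0.68).

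Between the sexes, 0 of the 10 genes were called in controls and 0 over the 4 conditions, beside 3.03% of all genes in each, and DESeq2 and limma voom called 0 as well. In controls 0 of the 10 had male and female groups without overlap, against 5.59% of all genes. In controls the difference, male minus female, was 1.43 for *ine* (SE 0.831, adjusted p = 1) and −0.83 for *DAT* (SE 0.889, adjusted p = 1). Without female control 2 *ine* was called higher in male controls. Over the 4 conditions *Hdc* was higher in males by a log2 value of 0.88 (SE 0.539, adjusted p = 1), which was not called.

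The genes that supply precursors and cofactors, *Hn*, *Trh*, *Tdc1*, *Pu*, *pr*, *Dhpr*, *Pcd* and *Catsup*, were in the table and 7 of the 8 were tested. Of these 7, 0 were called in any injured group against its own control. Over all injured groups against both controls 1 of 7 was called, *Trh*, beside 5.2% of all genes. *Trh* encodes the neuronal tryptophan hydroxylase that takes the rate-limiting step of serotonin synthesis. *Trh* had 0, 8 and 5 counts in female controls and 1, 21 and 0 in male controls. Pooled over both sexes its level was 7.43 CPM in controls and 6.23, 2.05 and 0.933 CPM at 1, 2 and 4 h, from 35, 33, 10 and 4 counts, and without male control 2 and male 1 h 2 it was 4.03 CPM in controls and 3.46 CPM at 1 h. The log2 FC was −1.97 (SE 0.902, adjusted p = 0.703 and 0.438 to 1 over 32 refits). The call was lost in 16 of 32 refits, among them without male control 2 (−1.02), with DESeq2 (−2.19) and with limma voom (−0.34). It was also lost without any of female control 2 or 3, female 1 h 1 or 3, female 4 h 2 or 3, male control 1, male 2 h 2 or 3 and male 4 h 2, at log2 FC of −1.95 to −1.76.

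Of the genes of conjugation and recycling, *b*, *t*, *Dat*, *CarT* and *Balat*, 3 of 5 were tested and 0 were called in any of the 12 comparisons by edgeR, with 0 at an unadjusted p under 0.05. *Dat* is the arylalkylamine N-acetyltransferase and another gene than *DAT*.

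Of the 19 receptors of dopamine, serotonin, octopamine, tyramine and histamine, 18 were tested. Of these 1 was called higher in males at 1 h and 1 at 2 h, and 0 lower, beside 4.64 and 7.26% of all genes called. A single gene of 18 lies near these shares. In males at 4 h and in females 0 were called. *5-HT1B*, a serotonin receptor, was at 28.2, 0.807 and 31.5 CPM in male controls and at 46.7, 49.9 and 85.2 CPM at 2 h, above all controls (log2 FC 1.70, SE 0.728, adjusted p = 0.639 and 0.294 to 1 over 33 refits). Without male control 2, the library at 0.807 CPM, it was 0.99, and without male 2 h 3 it was 1.38. The call was lost in 3 of 33 refits. *DopEcR*, a receptor for dopamine and the steroid ecdysone, was at 84.5, 14.5 and 129 CPM in male controls and at 169, 151 and 136 CPM at 1 h (log2 FC 1.02, SE 0.468, adjusted p = 0.999 and 0.574 to 1 over 33 refits). The low value was again male control 2, and without it the log2 FC was 0.48. Without any of male control 1, male 1 h 1, male 1 h 2 and male 1 h 3 the call was lost as well, at 0.94 to 1.08. In all the call was lost in 8 of 33 refits.

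In the change at 2 h, male minus female, 2 of 18 receptors were called, beside 3.65% of all genes. *TyrR*, a tyramine receptor, was at 21.1, 21 and 27.3 CPM in male controls and 13.8, 3.02 and 15.7 CPM in males at 2 h, and at 16.5, 9.65 and 7.94 CPM in female controls and 39.6, 13.9 and 17.8 CPM in females at 2 h. The difference of the changes was −2.26 (SE 0.992, adjusted p = 1 and 0.621 to 1 over 33 refits), and the call was lost without any of female control 2 or 3, female 2 h 1, male control 3 and male 2 h 2, at −2.15 to −1.65. In all the call was lost in 6 of 33 refits. *TyrRII* had 0 counts in female controls and 15 in females at 2 h, all in 1 library, against 17 in male controls, also in 1 library, and 1 in males at 2 h. It was also called in male against female controls on these counts, and neither call held with DESeq2 or limma voom. Another receptor, *5-HT2B*, which the naming rule did not pick, was called lower in males over the 4 conditions by edgeR but not by DESeq2 or limma voom, so that 5 of the 18 tested (27.8%) were called in at least 1 of the 12 comparisons, beside 21% of all genes.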

How the data were processed

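The deposited table holds raw counts of reads per gene. Per the labels and the methods, the authors made 50 bp QuantSeq 3′ reads from 15 ng RNA of single brains, sorted them with CASAVA 1.8.2, aligned them to dm3 with STAR 2.4 and counted them with HTSeq. The annotation and strand setting are not given in the sources used here. Reads outside single genes (12.2 to 32.2% aligned to more than 1 place, 6.06 to 8.71% ambiguous, 1.74 to 7.19% in no feature) stayed out of library sizes. The 8 deposited comparison tables, with fold changes and p-values of the authors' edgeR 3.22.3, were not used.

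CPM used TMM factors. Comparisons came from edgeR 4.0.16 (R 4.3.3), robust quasi-likelihood F-test, 1 fit of 8 groups, with SE as |log2 FC| divided by the square root of F. The fit was tested on simulated data in which only genes with a mean of at least 20 counts were changed. Changes in genes of fewer reads, such as *SerT* and *Tbh* at means of 2.71 and 2.5 counts, were outside that test. Calls follow the legends of the study (p under 0.05, |log2 FC| over 1), and FDR under 0.05, the rule of its methods, stands beside. Alternatives were RLE factors, DESeq2 1.42.0, limma 3.58.1 voom, no filter, filterByExpr, a replicate block, |log2 FC| over 2, each library left out, 2 or 3 left out together and, added after the data were seen, depth as a term and the spread, ranges and correlations without male control 2 and male 1 h 2. Libraries were split at the median depth, and sets of 9 libraries by *e* or *DAT* were picked after their values were seen. The 10 genes and all lists were chosen with earlier results of these data known. Other pathway genes were named where called, at most 4 per list by lowest p, and likeness is Spearman's rho of log2(CPM + 1). Gene overlaps are those of a later annotation, dm6. No pair of replicates was a single library deposited again (chi-square per gene 2.41 to 68.2 over 24 pairs). Intervals and floors cover counting error only, and folds at a floor take the control total as exact. Figures used Python 3.11.15 with matplotlib 3.10.9.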

Additional observations from a re-analysis of the deposited data

How the results depend on the processing

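Refits kept the sign of all 6 called results, and the decrease of *ine* in males at 4 h kept its call in all 33. At FDR under 0.05 the 10 genes had 0 calls in males at 1, 2 and 4 h and in injured against control. In males at 1 h (2 called) filterByExpr, which drops *SerT* and *Tbh*, and leaving male control 2 and male 1 h 2 out gave 0, and voom gave 1 (*Tdc2*). RLE factors, depth as a term and leaving the 3 shallowest out gave 3, adding *Tdc2*, and DESeq2 gave 2, with *Tdc2* in place of *SerT*. In males at 2 h (1 called) DESeq2, no filter, voom and leaving the 3 shallowest libraries out gave 2, adding *e*, and leaving male control 2 and male 1 h 2 out gave 0. With depth as a term, males at 4 h gave 2 and females at 1 and 2 h and sex by injury at 1 h gave 1 each, adding *e*. No filter gave 1 (*e*) in females at 1 h and in sex by injury at 1 and 4 h, and voom gave 1 (*e*) in females at 1 h and in sex by injury at 1 h. In sex by injury at 2 h DESeq2, voom and leaving the 3 shallowest out gave 1 (*ine*). The latter also gave 1 in sex by injury at 1 h (*Tdc2*), in male against female controls (*ine*) and over the 4 conditions (*DAT*). In injured against control (2 called) DESeq2, filterByExpr, leaving male control 2 and male 1 h 2 out and |log2 FC| over 2 gave 1, and voom gave 0. The cause of these changes was not tested.

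Leaving out each library in turn, calls in males ranged between 0 and 3 at 1 h and between 0 and 2 at 2 h and stayed at 1 at 4 h, and calls ranged between 0 and 1 in females at 1 h, in each sex by injury comparison and in both comparisons of the sexes, and between 0 and 2 in injured against control. Called log2 FC ran from −5.27 to −4.50 for *Tbh* and −6.13 to −3.81 for *SerT* in males at 1 h, −3.16 to −1.66 for *ine* at 2 h, −3.61 to −2.05 for *ine* at 4 h, and −3.14 to −1.46 for *SerT* and −1.54 to −0.85 for *ine* in injured against control. Of the 114 pairs of gene and comparison that were not called, 18 were called in some refit and 57 kept their sign in all.

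A replicate block gave 2 in males at 2 h (*e*, *ine*), 1 in females at 1 h (*e*), 1 in sex by injury at 2 h (*ine*) and 1 in injured against control (*ine*), and changed no other count. Not every same-numbered pair correlated above 0.1 in its deviations (58 of 84, range −0.55 to 0.72), so the numbers were not taken to pair the flies. Libraries of 1 number were still more alike. Their median correlation was 0.3 against −0.198 for other pairs, and 17 of 24 libraries were closest to their own number. All 8 libraries numbered 2 were among the 12 deeper, with 2 of 8 each for numbers 1 and 3, so number and depth cannot be fully told apart. RLE factors moved the median log2 FC of all genes in males at 2 h from −0.02 to −0.17 and kept all calls. Depth limits *SerT* and *Tbh*, whose groups of 0 counts give floors and no folds.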
